A study of Mus musculus with 8 samples.

Results

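The genes described here are 40 genes that the transcription factor ATF4 is known to govern, or that encode ATF4 and its partners, in the response to amino acid shortage. They were taken from a list of gene symbols, each matched under its current name or an older synonym to the array's annotation. Of the 40 genes, 38 had a probe set among the 22206 tested, and Pycr1 and Aars were not analysed here. The cells were RAW264, a macrophage-like line from mouse, and interleukin-4 (IL-4) is a cytokine that turns macrophages towards the alternatively activated, or M2, state. The study edited the line by CRISPR/Cas9, established 2 Gpr137b +/+ clones (WT1 and WT2) and 2 Gpr137b -/- clones (KO1 and KO2), and asked which IL-4-responsive genes depend on Gpr137b, an orphan G-protein-coupled receptor. Each clone gave 1 array without IL-4 and 1 after IL-4 for 48 h, so the 8 arrays fall into 4 groups of 2. For IL-4 the medium was changed to one without serum that held bovine serum albumin; whether the cells without IL-4 had this change is not stated, so IL-4 and medium cannot be told apart. Each clone descends from a single cell, and with 2 clones per genotype a difference between genotypes cannot be told apart from one between clones.

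ATF4 is the effector of the integrated stress response. When amino acids run short, or when unfolded protein, viral RNA or lack of haem is sensed, kinases phosphorylate the translation factor eIF2, general protein synthesis falls, and the Atf4 mRNA is translated more through its upstream open reading frames. ATF4 then pairs with C/EBP proteins on a composite DNA element and induces genes for amino acid synthesis, amino acid uptake and tRNA charging, together with regulators such as Ddit3 (CHOP) and Trib3 that restrain or redirect the response. In macrophages the same genes supply cystine for glutathione, serine and one-carbon units. The arrays read RNA alone, so ATF4 protein and eIF2 phosphorylation were not measured.

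The composite element has the core TGATGNAA, which reads TTNCATCA on the other strand. It was looked for on both strands in the RefSeq promoter windows of GRCm38.p6, which run from 250 bases before to 50 bases after each start. Of the 38 genes, 30 had a window and 10 of these (33.3%) held the core, against 4.51% of the 27025 genes of the promoter table; the genes were listed as known targets of ATF4, so this share is a description. The 10 were Atf3, Nupr1, Trib3, Asns, Got1, Chac1, Slc7a11, Slc1a4, Gars and Vldlr. The windows of 5 genes whose values are given below are shown with the core in capitals, in the direction of transcription.
Slc7a11: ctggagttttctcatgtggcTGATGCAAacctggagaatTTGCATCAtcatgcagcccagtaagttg
Atf3: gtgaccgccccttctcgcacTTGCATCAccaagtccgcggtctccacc
Nupr1: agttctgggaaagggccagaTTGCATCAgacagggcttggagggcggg
Trib3: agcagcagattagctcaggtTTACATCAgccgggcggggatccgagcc
Asns: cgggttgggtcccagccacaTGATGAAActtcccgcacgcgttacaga
Slc7a11 (chr3:50443633-50443699, minus strand) was the 1 gene of the 10 with more than 1 match, with cores that begin 66 and 47 bases before its start, in opposite orientations. In Atf3 (chr1:191183416-191183463, minus strand) and in Nupr1 (chr7:126625553-126625600, minus strand) the core begins 110 bases before the start. In Asns (chr6:7693205-7693252, minus strand) it begins 23 bases before the start, and in Trib3 (chr2:152344019-152344066, minus strand) 15 bases after it. A match of letters is a description and shows no binding, and a window without the core says nothing about ATF4 at that gene.

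Signals are the log2 of the deposited intensities. Background was set for each array at the 95th percentile of the signals of 23 antigenomic controls, between 6.64 and 6.78 on the 8 arrays. Of the 38 genes, 30 were above it on all 8 arrays, 6 on none (Ppp1r15a, Aldh1l2, Cbs, Slc7a3, Slc1a4 and Vldlr), Cth on 7 and Chac1 on 1. The 8 of 9 listed macrophage markers that were measured were above background on every array, with a log2 of their summed signal of 20.03 to 20.13. The measured lymphocyte (4), fibroblast (3) and epithelial (4) markers were above it on none. Of 7 osteoclast markers 1 was above on all arrays and 5 on none; their summed signal ranged from 10.48 to 13.69 and was lower with IL-4 in each clone. Mgl2, an M2 marker, read 8.44 to 9.50 without and 15.24 to 15.95 with IL-4. The Gpr137b signal overlapped between genotypes, at 10.00 to 11.12 in KO and 10.32 to 11.93 in WT arrays, and the edited part of the gene is not stated.

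**Figure D1:**
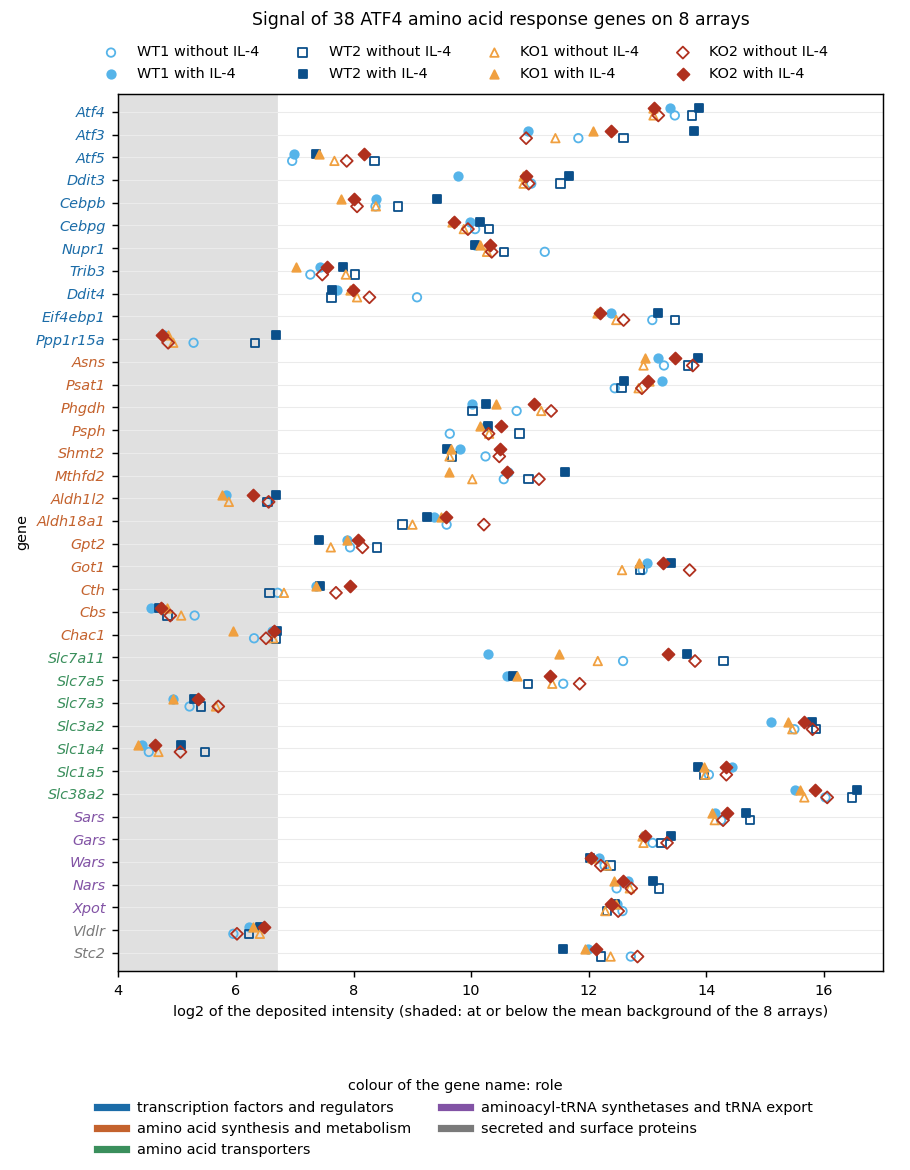
Signal of the 38 genes on the 8 arrays (x axis, log2 of the deposited intensity), with 1 row per gene, open symbols without and filled symbols with IL-4, and colours and shapes for the 4 clones. Slc7a11 spreads widest, from 10.29 to 14.29, Xpot narrowest, from 12.28 to 12.57, and 6 genes lie at background on all arrays; a probe set's level is not set against another's.

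None of the 38 genes passed the limma test in any of the 6 comparisons. With IL-4, 0 of 38 were called in WT cells, where 0.036% of all probe sets were called, 0 in KO cells (0.0315% of all), 0 in the effect averaged over both genotypes (0.167% of all) and 0 in the difference of the 2 effects (0.0% of all). Between genotypes, 0 were called in KO minus WT without IL-4 (0.018% of all) and 0 with IL-4 (0.0315% of all). At an unadjusted p under 0.05 the counts of the 38 in these 6 comparisons were 3, 0, 4, 0, 3 and 1, which is 7.89%, 0.0%, 10.5%, 0.0%, 7.89% and 2.63% of them, against 3.85%, 2.77%, 4.61%, 1.52%, 4.41% and 3.53% of all probe sets. Without WT1, Ppp1r15a, which was at background on all arrays, was called in KO minus WT with IL-4 (−1.88, limma adjusted p = 0.0208). In bulk RNA, fewer cells that express a gene and less RNA per cell cannot be told apart.

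Atf4 mRNA itself was close to flat under IL-4. It read 13.46 and 13.75 in WT1 and WT2 and 13.10 and 13.18 in KO1 and KO2 without IL-4, and 13.39, 13.87, 13.09 and 13.10 in the same clones with it. Both WT clones were above both KO clones in each treatment, while the change with IL-4 within a clone ran from −0.08 to 0.11. The averaged IL-4 effect was −0.01 on the log2 scale (95% interval −0.39 to 0.37, adjusted p = 1 from limma). KO minus WT was −0.47 without IL-4 (95% interval −1.0 to 0.07, adjusted p = 0.993) and −0.53 with IL-4 (−1.06 to 0.0028, adjusted p = 1), a fold of 1.38 and 1.45. Atf4 and Cebpg were the 2 of 38 genes whose 4 KO arrays all lay below the 4 WT arrays, a pattern that 2.54% of all probe sets showed. Both were among the 31 genes with a mean above background, where 3.79% of the 9616 probe sets with such a mean showed it. The KO arrays lay above all WT arrays in 0 of 38, against 2.36% of all and 3.33% of those with a mean above background. Cebpg, a C/EBP partner of ATF4, read 9.97 to 10.30 in WT and 9.68 to 9.95 in KO arrays.

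Atf3, a repressor and activator that ATF4 induces, varied most among the transcription factors. It read 11.82, 12.59, 11.43 and 10.94 in WT1, WT2, KO1 and KO2 without IL-4, and 10.96, 13.80, 12.08 and 12.38 with it. With IL-4 it was lower in WT1 and higher in the other 3 clones, with changes of −0.86, 1.21, 0.64 and 1.44 in the same order. The effect was 1.04 in KO cells (95% interval −0.68 to 2.76, adjusted p = 1 from limma) and 0.61 averaged over both genotypes (−0.61 to 1.82), which was 0.09 without WT2 and 1.12 without WT1. KO minus WT without IL-4 was −1.02 (−2.74 to 0.69, adjusted p = 0.993). Ddit3, the pro-apoptotic factor CHOP, read 11.02, 11.52, 10.89 and 10.98 without IL-4 in the same order of clones and 9.78, 11.67, 10.89 and 10.94 with it. WT1 changed by −1.24 with IL-4, WT2 by 0.15, and the KO clones by −0.0017 and −0.04. Its averaged IL-4 effect was −0.28 (adjusted p = 1), and it turned to 0.07 without WT1. A second probe set of Ddit3, given under the flagged results, was lower with IL-4 in KO1 and higher in KO2.

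Trib3, a pseudokinase that restrains ATF4, lay within 1.00 log2 units over the 8 arrays. It read 7.27 and 8.02 in the WT clones and 7.87 and 7.47 in the KO clones without IL-4, and 7.43, 7.83, 7.02 and 7.55 with it. The lowest was KO1 with IL-4, the groups overlapped in every comparison, and the clones showed no common direction: WT1 and KO2 were higher with IL-4, WT2 and KO1 lower. Cebpb, another partner of ATF4, read 8.37, 8.75, 8.38 and 8.06 without IL-4 in WT1, WT2, KO1 and KO2 and 8.38, 9.42, 7.78 and 8.01 with it. Under IL-4 both KO clones were below both WT clones, with KO minus WT at −1.01 (95% interval −1.79 to −0.22, adjusted p = 1 from limma). WT2 with IL-4 was the highest of the 8 arrays, and the difference was −0.48 without WT2. Atf5, a factor under the same translational control as ATF4, read 6.96, 8.36, 7.68 and 7.88 without IL-4 and 6.99, 7.37, 7.41 and 8.17 with it, and KO minus WT with IL-4 was 0.61 (−0.40 to 1.63, adjusted p = 1).

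Among the other regulators, Eif4ebp1 and Nupr1 were lower with IL-4 in each clone. Eif4ebp1, which binds the cap-binding protein eIF4E and holds back translation, read 13.08, 13.47, 12.47 and 12.59 in WT1, WT2, KO1 and KO2 without IL-4 and 12.38, 13.17, 12.14 and 12.19 with it. The change with IL-4 was −0.70 to −0.29 in the 4 clones, and the KO clones were below the WT clones within each treatment. KO minus WT was −0.74 without IL-4 (95% interval −1.40 to −0.09, limma adjusted p = 0.993) and −0.61 with IL-4 (−1.27 to 0.05, adjusted p = 1). Nupr1, a small chromatin-associated protein of the stress response, read 11.25, 10.56, 10.27 and 10.35 without IL-4 and 10.07, 10.06, 10.16 and 10.31 with it. All arrays with IL-4 lay between 10.06 and 10.31, and WT1 without IL-4 stood apart. The IL-4 effect was −0.84 in WT cells (−1.43 to −0.25, adjusted p = 1), and KO minus WT without IL-4 was −0.59 (−1.18 to −0.01, adjusted p = 0.993). Ddit4, an inhibitor of the growth kinase mTORC1, read 9.08, 7.63, 8.06 and 8.27 without IL-4 in WT1, WT2, KO1 and KO2. With IL-4 it read 7.72, 7.64, 7.94 and 7.98. Its IL-4 effect in WT cells of −0.68 (95% interval −1.60 to 0.25) came from WT1, and without that clone it was 0.01.

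In the genes of amino acid synthesis and metabolism no common direction with IL-4 was seen. The averaged effect was above 0 in 5 and below 0 in 8 of the 13 measured genes, with a median of −0.061. Asns, asparagine synthetase and a classic target of ATF4, read 13.28 and 13.69 in the WT clones and 12.93 and 13.77 in the KO clones without IL-4, and 13.18, 13.85, 12.97 and 13.47 with it. Its order of clones split both genotypes, with WT2 and KO2 above WT1 and KO1 in each treatment, and its averaged IL-4 effect was −0.05 (adjusted p = 1 from limma). Cth, which makes cysteine by transsulfuration, read 6.71, 6.58, 6.82 and 7.70 without IL-4 and 7.37, 7.43, 7.36 and 7.94 with it, close to background. It was higher with IL-4 in each clone, by 0.23 to 0.86, with an averaged effect of 0.57 (95% interval 0.06 to 1.09, adjusted p = 0.991), a 1.49-fold difference. Cbs, the enzyme before Cth in the same pathway, was at background on all arrays.

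The serine and one-carbon enzymes differed from each other. Phgdh, the first enzyme of serine synthesis, read 10.77, 10.03, 11.19 and 11.36 in WT1, WT2, KO1 and KO2 without IL-4 and 10.02, 10.26, 10.42 and 11.06 with it. Both KO clones were above both WT clones within each treatment. KO minus WT was 0.88 without IL-4 (95% interval 0.16 to 1.59, limma adjusted p = 0.993) and 0.61 with IL-4 (−0.11 to 1.32, adjusted p = 1), a fold of 1.83 and 1.52. The later enzymes of serine synthesis, Psat1 and Psph, had KO minus WT values of 0.37 and 0.07 without IL-4 and of 0.09 and 0.07 with it. Mthfd2, a mitochondrial one-carbon dehydrogenase, read 10.56, 10.97, 10.02 and 11.15 without IL-4 and 10.63, 11.59, 9.63 and 10.60 with it. With IL-4 both KO clones were below both WT clones, narrowly for KO2, and KO minus WT was −0.99 (−2.09 to 0.11, adjusted p = 1). Without IL-4 KO2 was the highest clone and KO1 the lowest. Gpt2, a mitochondrial alanine transaminase, read 7.94, 8.40, 7.61 and 8.15 without IL-4 and 7.89, 7.41, 7.89 and 8.07 with it; WT2 was both the highest and the lowest array.

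Most transporters read lower with IL-4, and none passed the test. The averaged effect was below 0 in 6 of the 7, with a median of −0.32, and in 4 of the 5 with a mean above background, with a median of −0.18 (−0.087 without WT1 and −0.33 without WT2). Over the 38 genes the median was −0.15 (−0.073 without WT1), over the 31 with a mean above background −0.12, and over all probe sets −0.0074. Slc7a11, the cystine and glutamate exchanger that feeds glutathione synthesis, read 12.58 and 14.29 in the WT clones and 12.15 and 13.81 in the KO clones without IL-4, and 10.29, 13.68, 11.49 and 13.35 with it. It was lower with IL-4 in each clone, with a change of −2.30 in WT1 and of −0.66 to −0.46 in the others, and WT2 and KO2 lay above WT1 and KO1 in each treatment. The averaged effect was −1.01 with a 95% interval of −2.82 to 0.80 (adjusted p = 1 from limma), a 2.01-fold difference whose interval includes 0, and it was −0.59 without WT1. The fit does not pair the 2 arrays of a clone, so this interval also takes in the differences in level between clones. Slc7a5, which exchanges large neutral amino acids together with Slc3a2, read 11.57, 10.97, 11.38 and 11.85 without IL-4 and 10.62, 10.72, 10.77 and 11.34 with it. Each clone was lower with IL-4, with changes of −0.95 to −0.25, and the averaged effect was −0.58 (−1.06 to −0.09, adjusted p = 0.907). Slc3a2, the heavy chain that both exchangers share, was lower with IL-4 in each clone, with changes of −0.40 to −0.07. The glutamine carrier Slc1a5 (13.86 to 14.44) and Slc38a2 (15.51 to 16.56) did not move alike in the 4 clones, and Slc7a3 and Slc1a4 were at background.

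Of the secreted and surface proteins, Stc2, a secreted glycoprotein of the stress response, gave the lowest adjusted p of the 38 genes for IL-4. It read 12.72, 12.21, 12.37 and 12.83 in WT1, WT2, KO1 and KO2 without IL-4 and 11.99, 11.57, 11.94 and 12.13 with it. All 4 arrays with IL-4 were below all 4 without, and the change within a clone was −0.72 to −0.43. The averaged effect was −0.63 (95% interval −1.07 to −0.18, adjusted p = 0.697 from limma), a 1.54-fold difference. Besides Stc2, the arrays with IL-4 were below all those without for Wars (12.02 to 12.17 with, 12.21 to 12.37 without), which charges tryptophan, and for Cbs at background. This made 3 of 38 genes, or 7.89%, against 1.74% of all probe sets, and 0 of 38 had all 4 arrays with IL-4 above those without, against 1.69%. Among the 31 genes with a mean above background these counts were 2 and 0. The shares among the 9616 probe sets with such a mean were 1.96% and 2.62%. Sars, Gars and Nars, which charge serine, glycine and asparagine, and Xpot, which exports tRNA from the nucleus, had averaged effects between −0.10 and 0.03. Among 14 other measured aminoacyl-tRNA synthetases, which were listed for comparison, 12 had averaged effects above 0, with a median of 0.21, and 0 were called.

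The changes within single clones were small for most genes. None of the 38 was at least 1.5-fold higher with IL-4 in each of the 4 clones, against 0.509% of all probe sets, and 0 were at least 1.5-fold lower in each, against 0.293%. In a count of changes of any size, added after the values were seen, 11 of 38 genes (28.9%) were lower with IL-4 in each clone, against 8.44% of all probe sets. They were Cebpg, Nupr1, Eif4ebp1, Slc7a11, Slc7a5, Slc3a2, Wars and Stc2, which were above background, and Cbs, Slc7a3 and Slc1a4, which were not. Higher in each clone were 2 of 38 (Psat1 and Cth), against 7.93% of all. Among the 31 genes with a mean above background, 8 were lower in each clone, where 10.8% of the 9616 probe sets with such a mean were. The median change of the 38 genes with IL-4 was −0.11 in WT1 and −0.027 in WT2, and −0.12 and −0.14 in the KO clones. The 9616 probe sets with a mean above background, as 31 of the 38 genes had, moved as well. Their medians were −0.07 and 0.11 for the WT clones and 0.03 and −0.04 for the KO clones. The median of the 38 genes was the lower of the 2 within every clone, by least for WT1. All probe sets together had medians between −0.02 and 0.0056. The list of proliferation genes moved in the same direction as the 38 genes. Its averaged effects were below 0 in 10 of 11 genes, with a median of −0.55, and its part in the values of the 38 genes was not tested.

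**Figure D2:**
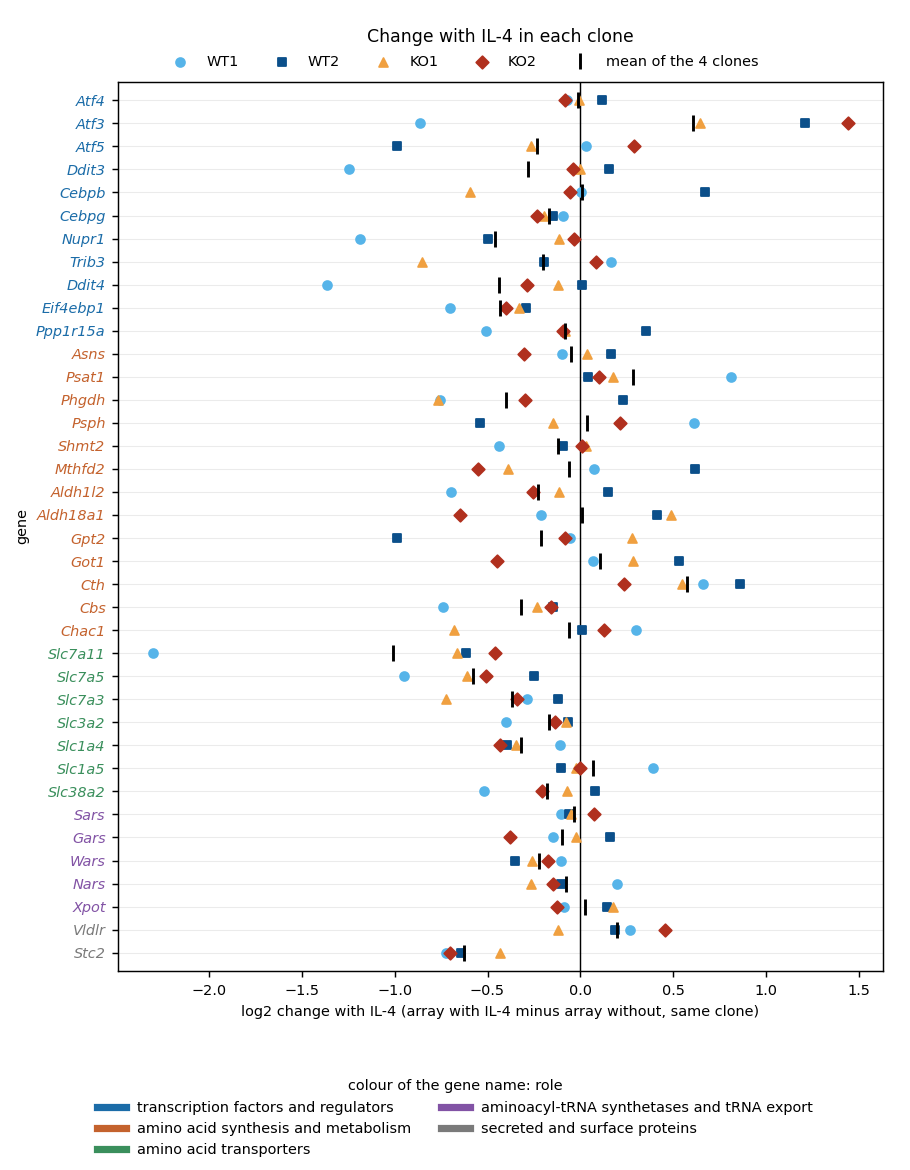
Change with IL-4 of each of the 38 genes (x axis, log2 of the array with IL-4 minus the array without, of the same clone), with 1 symbol per clone and a bar at the mean of the 4 clones. All 4 symbols lie left of 0 for 11 genes and right of 0 for 2, and Slc7a11 in WT1 lies furthest left, at −2.30.

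Between genotypes, the medians of the groups of genes depended on which clones were compared. KO minus WT without IL-4 was below 0 in 9 of the 11 factors and regulators, with a median of −0.34, and in 5 of the 13 enzymes, with a median of 0.08. With IL-4 it was below 0 in 7 of the 11, with a median of −0.34, and again in 5 of the 13, with a median of 0.09. Without WT2, the factors and regulators were below 0 in 9 of 11 without IL-4 (median −0.32) but in 5 of 11 with it (median 0.03), where the median was −0.077 without KO1. Without KO2, the enzymes had medians of −0.21 and −0.038. All 5 measured genes of tRNA charging and export had values below 0 in both treatments, between −0.28 and −0.03 without and between −0.38 and −0.05 with IL-4; without WT2 these counts were 3 and 4 of 5. Over the 38 genes the median was −0.077 without and −0.024 with IL-4, against 0.0003 and 0.018 over all probe sets. With each clone left out in turn, the median of the 38 ran from −0.28 (without WT1) to 0.041 (without KO1) in the absence of IL-4 and from −0.31 (without WT1) to 0.083 (without WT2) in its presence. The 11 measured proliferation genes all had a higher mean in KO than in WT cells in both treatments, with medians of 0.44 and 0.49 and 0 called. WT2 was low in this list, with a median of WT2 minus WT1 of −1.92 without and −0.85 with IL-4. Without IL-4, Mki67 read 11.88, 8.24, 11.57 and 10.54 in WT1, WT2, KO1 and KO2, and Rrm2 11.31, 8.23, 11.44 and 11.21. The part of these genes in the values of the 38 genes was not tested. The IL-4 effects of the genotypes, each set against its own arrays without IL-4, differed most for Slc7a11 (0.90, 95% interval −2.72 to 4.51), Atf3 (0.87, −1.56 to 3.30), Mthfd2 (−0.81, −2.37 to 0.74), Nupr1 (0.76, −0.07 to 1.59), Cebpb (−0.66, −1.77 to 0.45) and Gpt2 (0.62, −0.30 to 1.53), all with an adjusted p of 1 from limma. Without WT1 and without WT2 these differences were 0.058 and 1.74 for Slc7a11, −0.16 and 1.90 for Atf3, −1.09 and −0.54 for Mthfd2, 0.42 and 1.11 for Nupr1, −1.0 and −0.33 for Cebpb and 1.08 and 0.15 for Gpt2.

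**Figure D3:**
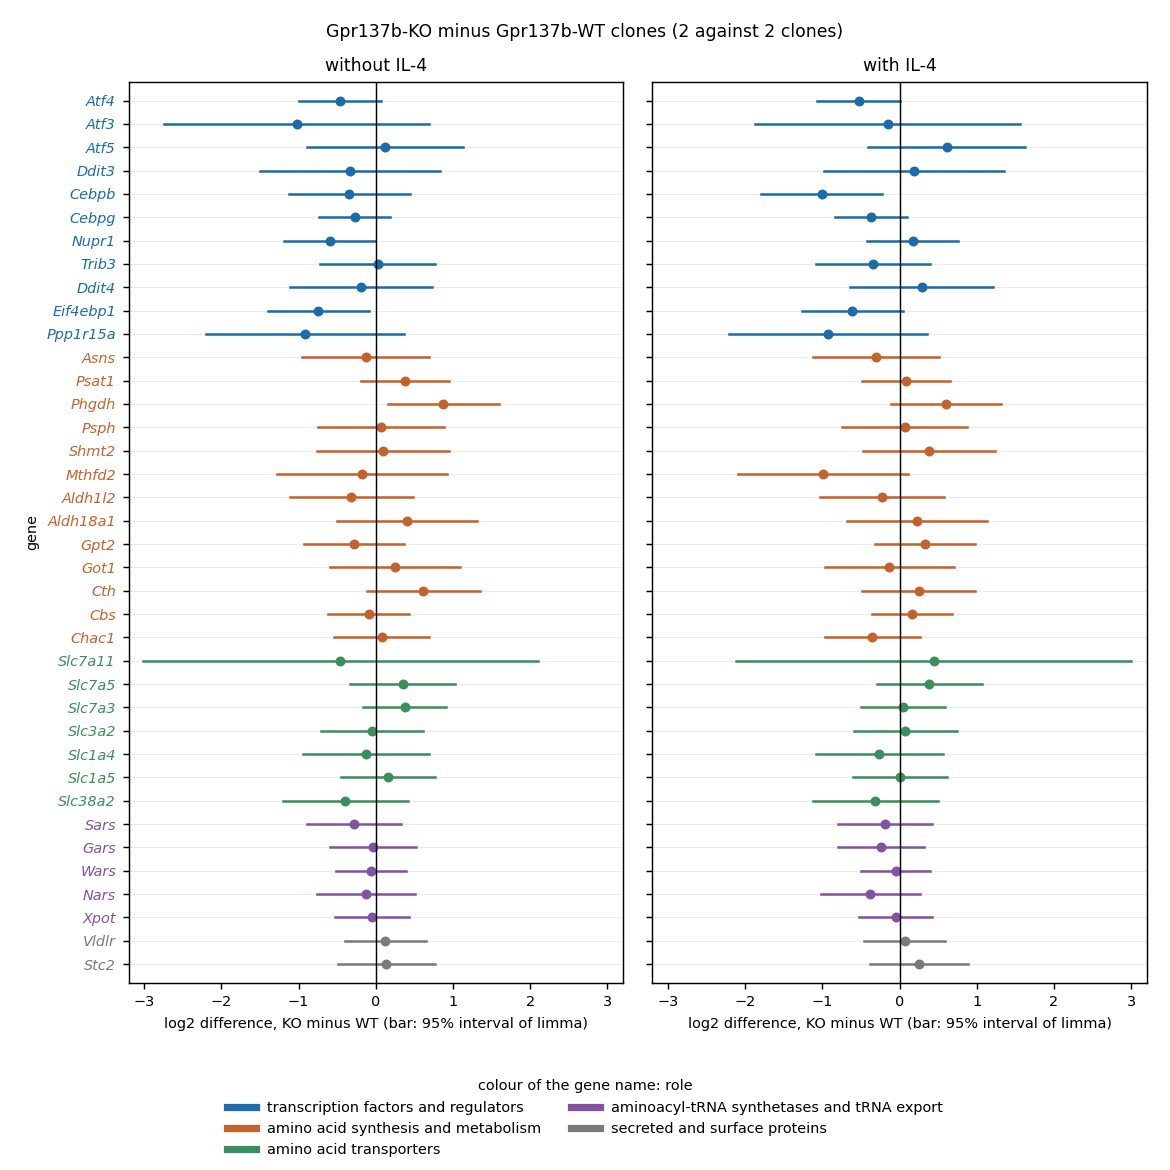
Log2 difference of KO minus WT clones (x axis) for the 38 genes without IL-4 (left) and with IL-4 (right), with points for the difference and bars for its 95% interval in limma. The bars leave out 0 for Nupr1, Eif4ebp1 and Phgdh without IL-4 and for Cebpb with IL-4, none of which passed after adjustment, and those of Slc7a11 are the widest.

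Between clones of the same genotype, Slc7a11 differed most of the 38 genes. Such differences are between single arrays, so their size is not set against the effects above, which are differences of group means. WT2 read 3.27-fold above WT1 without IL-4 and 10.5-fold above it with IL-4, and KO2 read 3.15-fold and 3.62-fold above KO1. Each clone and treatment has 1 array, so these differences have no test and may include any difference between single arrays. Slc7a11 and Ppp1r15a, the phosphatase subunit that ends the eIF2 signal, were the 2 of 38 genes at least 2-fold higher in WT2 than in WT1 in both treatments, against 1.02% of all probe sets. Ppp1r15a was at background, which leaves 1 of the 31 genes with a mean above background, against 2.09% of the 9616 probe sets with such a mean. Slc7a11 was the 1 of 38 at least 2-fold higher in KO2 than in KO1, against 0.248% of all and 0.447% of those with a mean above background. No gene of the 38 was at least 2-fold lower in WT2 (1.29% of all) or in KO2 (0.117% of all) in both treatments. The 2 matches to the composite element in its promoter, shown above, set Slc7a11 apart from the other 9 genes with the core, and no value here links them to its level.

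Within each genotype most of the genes were higher in the second clone, though the groups of genes differed. Without IL-4, 26 of 38 genes were higher in WT2 than in WT1, with a median of 0.28, and with IL-4 28 of 38, with a median of 0.37. Over all probe sets 51.2% and 46.9% were higher, with medians of 0.02 and −0.03. Of those with a mean above background, 35.8% and 47.9% were higher, with medians of −0.19 and −0.03. In KO2 against KO1, 29 of 38 were higher without and 33 of 38 with IL-4, with medians of 0.19 and 0.26. Over all probe sets 49.5% and 50.6% were higher, with medians of −0.0043 and 0.0046. Of those with a mean above background, 56.4% and 45.8% were higher, with medians of 0.04 and −0.03. In the absence and presence of IL-4, the medians of WT2 minus WT1 were 0.38 and 0.48 for the factors and regulators, 0.37 and 0.66 for the transporters, 0.15 and 0.42 for tRNA charging and export, and 0.01 and 0.08 for the enzymes. Under IL-4 Atf3 read 7.14-fold and Ddit3 3.71-fold above WT1. The medians of KO2 minus KO1 were 0.08 and 0.05 for the factors and regulators, 0.37 and 0.38 for the transporters, 0.14 and 0.05 for tRNA charging and export, and 0.68 and 0.50 for the enzymes, such as Mthfd2 (2.19-fold and 1.96-fold above KO1) and Shmt2 (1.80-fold and 1.77-fold), a mitochondrial enzyme that passes the carbon of serine to folate.

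WT2 was the highest of the 4 clones in both treatments for 15 of 38 genes (39.5%), against 10.6% of all probe sets, a count added after the values were seen. They were Atf4, Atf3, Ddit3, Cebpb, Cebpg, Trib3, Eif4ebp1, Ppp1r15a, Chac1, Slc7a11, Slc3a2, Slc1a4, Slc38a2, Sars and Nars. Of these, 12 were among the 31 genes with a mean above background, where 13.6% of the probe sets with such a mean had WT2 highest. KO2 was highest for 7 of 38 (5.81% of all): Phgdh, Shmt2, Aldh18a1 (proline synthesis), Cth, Slc7a5, Slc7a3 and Stc2. WT1 was highest for 1, Xpot (9.66% of all), and KO1 for 0 (6.39% of all). Other lists moved with the difference between the WT clones: 10 of 11 proliferation genes were lower in WT2 than in WT1 without IL-4, with a median of −1.92, and with IL-4 the median was −0.85. The osteoclast markers had their highest summed signal in WT2 without IL-4 (13.69) and their lowest in WT1 with IL-4 (10.48). Of these 7 markers 5 were above background on no array, so the sum rests on few genes. The part of either in the values of the 38 genes was not tested.

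**Figure D4:**
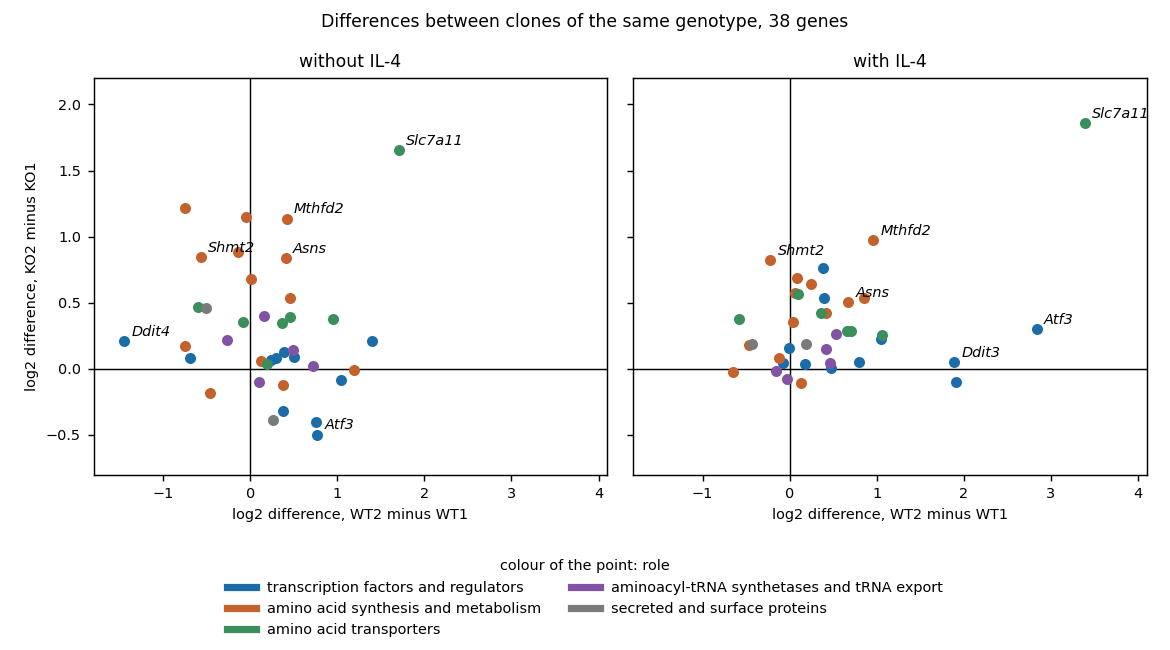
Differences between clones of 1 genotype for the 38 genes, as log2 of WT2 minus WT1 (x axis) against log2 of KO2 minus KO1 (y axis), without IL-4 (left) and with IL-4 (right), 1 point per gene and coloured by role. Slc7a11 lies at the upper right in both panels (1.71 and 1.65 without, 3.39 and 1.86 with IL-4), and Atf3 and Ddit3 lie far right with IL-4 but near 0 on the y axis.

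The genes upstream and beside the response gave 1 call. Of 102 genes in 7 lists written for comparison, 93 were measured, and Slc7a2 alone was called, in the averaged IL-4 effect. Slc7a2, a carrier of arginine and other cationic amino acids, was at background on the 4 arrays without IL-4 and read 7.37 and 10.23 in the WT clones and 7.70 and 6.73 in the KO clones with it. KO2 with IL-4 lay just above its array's background of 6.73. The averaged effect was 4.00 on the log2 scale (adjusted p = 0.0413 from limma), with the arrays without IL-4 taken at their values under background. With these raised to the background, the difference of the means over the 4 clones was at least 2.49-fold. This bound has no test and need not hold in each clone. Slc7a3, the carrier of cationic amino acids among the 38 genes, was at background on all arrays. The 12 measured regulators of eIF2 phosphorylation and exchange had a median averaged IL-4 effect of −0.01 with 6 above and 6 below 0. The 14 measured chaperones and other genes of the unfolded protein response, Ern1, Atf6 and Edem1 among them, had a median of 0.06. For the 19 other known targets of ATF4 the median was −0.09, with 15 below 0. Among the latter, Ndrg1, a gene induced by stress and differentiation (−1.16, adjusted p = 0.654) and Mthfd1l, a mitochondrial one-carbon synthetase (−0.74, adjusted p = 0.542), had values of the size seen in Slc7a11 and Stc2.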

How the data were processed

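RNA of 4 RAW264 clones was hybridised to 8 mouse Clariom S arrays. The authors normalised the raw files by SST-RMA in the Transcriptome Analysis Console, the submitters' notes name RMA, and they deposited linear intensities, of which the log2 was taken first. Of 28846 deposited rows 6640 are control rows and 22206 were tested. Genes were named through the platform annotation (19572 probe sets with 1 symbol, 2634 unnamed here). Where a gene had several probe sets, the one with the highest mean stood for it. limma 3.58.1 in R 4.3.3 fitted 1 mean for each of 4 groups on all 8 arrays with no block, with Benjamini-Hochberg adjustment over all probe sets within each comparison and a threshold of 0.05; no test by the authors is stated. The fit was tested on simulated data. The 2 arrays of a clone are paired by design, and their deviations from the group means correlated at 0.354 in WT and 0.161 in KO clones. The fit leaves out this pairing, so its intervals for IL-4 effects also take in differences in level between clones. Alternatives were quantile normalisation, a trended and robust eBayes, removal of the dimmest 40% of probe sets, clone as a fixed or random replicate block, other folds and leaving out each clone. The number of arrays limits the precision, and p-values measure only the spread between these clones. The genes and lists were chosen with earlier results of these data known. Genes given with all values were Atf4, Ddit3, Asns, Trib3 and, in each comparison, those with the 6 largest differences among genes above background. Promoter sequences come from RefSeq tables of GRCm38.p6; for the build the authors used, none was found in the sources read.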

Additional observations from a re-analysis of the deposited data

Results flagged for a closer look

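For 3 of the 38 genes the clones moved opposite ways by genotype with IL-4. The 2 clones of one genotype both moved one way and the 2 clones of the other both moved the opposite way. This count was near the share of all probe sets that did so, 8.43%. Cebpb changed by 0.0031 and 0.67 in the WT clones and by −0.60 and −0.05 in the KO clones, so that the KO effect minus the WT effect was −0.66 on the log2 scale. Mthfd2 changed by 0.07 and 0.62 in the WT clones and by −0.39 and −0.55 in the KO clones, a difference of −0.81. Shmt2 changed by −0.44 and −0.09 in the WT clones and by 0.03 and 0.01 in the KO clones, a difference of 0.28. The adjusted p of the difference from limma was 1 for each of the 3. A second probe set of Ddit3, not used above and marked as unmapped by its identifier, read 7.57 to 8.72, above background on all 8 arrays. It read 7.97, 8.43, 7.89 and 7.67 in WT1, WT2, KO1 and KO2 without IL-4 and 7.76, 8.72, 7.57 and 7.85 with it. WT1 and KO1 were thus lower with IL-4, and WT2 and KO2 higher. The fall in WT1 and the gap between the WT clones with IL-4 were smaller than in the probe set used above.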

How the results depend on the processing

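No alternative but 1 called any of the 38 genes: without WT1, Ppp1r15a, which is at background on all arrays, was called in KO minus WT with IL-4 (−1.88, adjusted p = 0.0208 from limma), with WT2 as the lone WT clone and assumed to vary like the others, so the count there ran from 0 to 1. With clone as a fixed replicate block, 0 of the 38 were called in the IL-4 comparisons, while 128 probe sets were called in the averaged effect; the lowest adjusted p of the 38 there was 0.241 (Stc2), and KO minus WT cannot be estimated with that block. With clone as a random replicate block 0 were called. With each clone left out in turn, the median of the 38 genes ran from −0.11 to −0.027 for IL-4 in WT cells, from −0.14 to −0.12 in KO cells, from −0.16 to −0.073 averaged, from −0.14 to 0.073 for the difference of the effects, from −0.28 to 0.041 for KO minus WT without IL-4 and from −0.31 to 0.083 for KO minus WT with IL-4. Lower with IL-4 in each clone by at least 1.2-fold were 3 genes (Eif4ebp1, Slc7a11 and Stc2). Above WT1 in both treatments, WT2 had 1 gene at 2-fold after quantile normalisation and 4 at 1.5-fold, and KO2 above KO1 had 2 and 3. Of 504 alternatives to 58 differences of single genes, 478 kept the direction and 26, in 19 differences, turned it. After quantile normalisation IL-4 in WT cells turned to −0.03 for Atf4 and −0.01 for Asns, and KO minus WT without IL-4 to −0.04 for Trib3. The others turned when a clone was left out. For IL-4 in WT cells the values ran from −1.36 to 0.01 for Ddit4, −0.07 to 0.11 for Atf4, −1.24 to 0.15 for Ddit3, −0.10 to 0.17 for Asns and −0.20 to 0.16 for Trib3. In KO cells they ran from −0.30 to 0.03 for Asns and −0.85 to 0.08 for Trib3. Averaged, they ran from −0.06 to 0.03 for Atf4, −0.63 to 0.07 for Ddit3, −0.13 to 0.03 for Asns and −0.43 to 0.03 for Trib3. The difference of the effects ran from −0.16 to 1.90 for Atf3, −0.16 to 0.03 for Atf4, −0.17 to 1.22 for Ddit3 and −0.83 to 0.10 for Trib3. KO minus WT ran from −0.55 to 0.29 for Asns and −0.35 to 0.40 for Trib3 without IL-4, and from −0.76 to 1.13 for Ddit3 and −0.64 to 0.03 for Asns with it. Medians by kind of gene with a clone left out were added after the values were seen. The averaged Atf3 effect ran from 0.09 to 1.12. The cause was not tested.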
